A study of Mus musculus with 10 samples.

Results

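The meiotic prophase genes are 10 genes whose products act in meiotic entry (*Stra8*) or build and use the chromosome structures of meiotic prophase (*Sycp3*, *Hormad1*, *Rec8*, *Stag3*, *Smc1b*, *Sycp1*, *Spo11*, *Dmc1* and *Msh5*). Their members in the table were all 5 kb windows that the deposited annotation assigned to 1 of these genes. The rule found 76 of 544879 windows, in 9 of the 10 genes. *Sycp1* had 25 windows, *Smc1b* 14, *Dmc1* 10, *Hormad1* 6, *Stag3* 6, *Msh5* 4, *Spo11* 4, *Stra8* 4 and *Rec8* 3. *Sycp3* had 0, because the table gives every window over it to *Chpt1*, a gene on the opposite strand that spans it. The window that holds the transcription start site (TSS) belonged to the gene itself in 7 of the 10. The TSS windows of *Sycp3*, *Hormad1* and *Stag3* carry the names *Chpt1*, *Ctss* and *Gpc2*, and they are described here as TSS windows but not counted among the 76.

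H3K4me3, trimethylation of lysine 4 of histone H3, was profiled by ULI-nChIP-seq, a native ChIP-seq protocol for small numbers of cells, in germinal vesicle (GV) oocytes from C57BL6 females aged 21 days. *Setd1b* encodes an H3K4 methyltransferase, and the comparison addresses how H3K4me3 is distributed in oocytes that lack it. Both genotypes carried floxed *Setd1b*, and in the cKO the allele was deleted by Cre under the control of *Gdf9*, which by the study's methods acts from early folliculogenesis onward. The labels give the WT libraries as floxed and Cre negative. By the study's methods, females with Cre and a deleted allele beside a wild-type allele could also be counted as WT, and the lines were kept on a C57BL/6OlaHsd background. Each of the 3 cKO libraries (replicates 1, 3 and 4) and 3 WT libraries (replicates 1, 2 and 4) came from a pool of about 200 oocytes, so a value is an average over a pool. Deletion therefore takes place after the prophase events that these genes serve, and GV oocytes are themselves arrested at the end of prophase.

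In meiotic prophase, homologous chromosomes are organised along cohesin-based axes, double-strand breaks are made and repaired on the homologue, and the partners are held together by the synaptonemal complex. In females these steps are completed in the fetal ovary, and the oocyte then stays arrested until ovulation. Trimethylated H3K4 marks promoters, above all CpG-rich ones, and in oocytes it also spreads over broad domains away from promoters.

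Values are given as enrichment-normalized RPKM (linear, not log), a scale that puts the 40th percentile of every library at 1.23 and its 99th percentile at 6.77. A value of 1.23 is therefore the level of an ordinary window of the genome. The H3K4me3 libraries had 10856015 to 32775874 reads in windows. The value that a window with 0 reads takes was 0.785, -1.02 and -0.70 in cKO replicates 1, 3 and 4 and 0.81, -0.036 and 0.30 in WT replicates 1, 2 and 4, so windows with few reads are spaced differently in each library. The TSS window of *Setd1b* itself fell from 7.11 ± 0.861 in WT to 4.36 ± 0.385 in cKO (SD, n = 3; limma adjusted p = 0.0332). TSS windows of 15 oocyte marker genes had a median of 5.58 in WT, and 14 of the 15 lay above the median of protein-coding TSS windows. In cKO their median was 4.81, none was called (7 at an unadjusted p under 0.05), and their summed level was 73.2 to 80.1 in cKO against 82.0 to 86.9 in WT. Every cKO library was above every WT library in 1 and below in 5, where the shares of protein-coding TSS windows were 15.2% and 8.99%. The 1 above was *Gdf9*, which also controls the Cre, at 7.46 in WT and 10.7 in cKO. Its input, scaled to library size, was 3.42 and 3.00 in cKO and 2.17 and 1.85 in WT. A part of the Cre transgene in this was not tested. Markers of granulosa cells, the somatic cells around the oocyte, gave a median of 3.79 over 10 genes in WT and 4.88 in cKO, with a summed level of 43.1 to 44.2 in cKO against 32.6 to 33.5 in WT. *Foxl2* alone among the 10 was called (a gain), 4 had an unadjusted p under 0.05, and the lowest was *Fshr*, at 0.870 in WT. All 10 granulosa markers had a difference above 0. Every cKO library was above every WT library in 6 of them (60%) and below in 0, beside the same 15.2% and 8.99% of protein-coding TSS windows. Chromatin from granulosa cells and H3K4me3 of the oocyte at these genes cannot be told apart here, and their part in the results below was not tested.

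The promoters of the genes on which the results turn are printed first. RefSeq promoter sequences (GRCm38.p6, 250 bases before to 50 after the start) were found for 9 of the 10 genes, and all 9 starts lay in the TSS window used here. Capitals mark an E2F-type motif (TCCCGC, or GCGGGA when read on the other strand) and the E-box CACGTG, which is its own reverse complement. *Sycp3* is shown because it had the highest H3K4me3 in both genotypes, *Msh5* and *Dmc1* because every cKO library lay above every WT library in their TSS window, and *Stag3* because its WT level was the lowest among genes with a sequence.
Sycp3, chr10:88459337-88459636, + strand: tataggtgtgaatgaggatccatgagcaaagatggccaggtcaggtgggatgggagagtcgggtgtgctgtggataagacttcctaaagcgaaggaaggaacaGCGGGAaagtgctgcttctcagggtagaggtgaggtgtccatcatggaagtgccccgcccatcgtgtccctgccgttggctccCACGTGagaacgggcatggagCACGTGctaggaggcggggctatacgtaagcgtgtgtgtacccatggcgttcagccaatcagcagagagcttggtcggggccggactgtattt
Msh5, chr17:35046573-35046872, - strand: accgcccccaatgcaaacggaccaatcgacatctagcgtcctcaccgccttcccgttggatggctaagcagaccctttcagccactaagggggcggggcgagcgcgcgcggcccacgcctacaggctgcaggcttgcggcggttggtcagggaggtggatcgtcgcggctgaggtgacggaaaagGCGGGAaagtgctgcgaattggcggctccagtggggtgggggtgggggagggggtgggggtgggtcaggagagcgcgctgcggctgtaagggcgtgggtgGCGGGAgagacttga
Dmc1, chr15:79605060-79605359, - strand: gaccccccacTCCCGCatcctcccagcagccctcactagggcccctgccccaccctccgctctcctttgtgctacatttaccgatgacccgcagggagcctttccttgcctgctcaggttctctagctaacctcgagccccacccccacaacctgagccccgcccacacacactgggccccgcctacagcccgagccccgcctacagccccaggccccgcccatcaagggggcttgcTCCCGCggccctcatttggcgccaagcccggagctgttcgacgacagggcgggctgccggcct
Stag3, chr5:138280259-138280558, + strand: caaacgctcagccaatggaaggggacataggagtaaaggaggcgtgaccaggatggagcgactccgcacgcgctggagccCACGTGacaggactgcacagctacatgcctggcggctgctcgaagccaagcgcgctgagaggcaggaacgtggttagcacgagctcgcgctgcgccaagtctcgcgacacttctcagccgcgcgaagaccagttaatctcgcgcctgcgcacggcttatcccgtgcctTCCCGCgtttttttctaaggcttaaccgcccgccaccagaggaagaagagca

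The E2F-type letters were present in 8 of the 9 promoters, all but that of *Stra8*, against 6562 of 32851 mouse promoters of the same length. E-boxes occurred in 4 of the 9 (*Sycp3*, *Hormad1*, *Stag3* and *Sycp1*), against 7.15% of all promoters, and each of these 4 also held the E2F-type letters, a pair found in 1.99% of all promoters. CCAAT, searched on both strands, was in 6 of the 9 against 37.4% of all. The promoters held 10 to 30 CpGs in 300 bases with a median of 21, where the median of all promoters was 7. *Stra8* had the fewest CpGs and *Stag3* the most. The E2F-type letters and the E-box each contain a CpG, and the promoters they are set against were not matched for CpG count. The part of CpG count in these shares was not tested. These letter matches are a description of the sequence and were not tested as binding sites.

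At their TSS windows, the genes other than *Spo11* carried H3K4me3 in GV oocytes of both genotypes, at levels that differed widely between genes. *Spo11* lay little above the level of an ordinary window. Differences between genotypes (cKO minus WT) over the 10 genes were -0.531 to 1.32. The WT mean ran from 6.47 for *Sycp3* to 1.67 for *Spo11*, with a median of 4.22 over the 10 genes, where the median of 20269 protein-coding TSS windows was 3.72 (quartiles 2.06 and 5.07). None of the 10 TSS windows was called with limma (0 gains and 0 losses at an adjusted p under 0.05, and 1 window at an unadjusted p under 0.05). Of the protein-coding TSS windows, 1.18% were called as gains and 0.75% as losses. The median difference was 0.307 over the 10 windows and 0.0937 over the protein-coding windows.

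**Figure D1:**
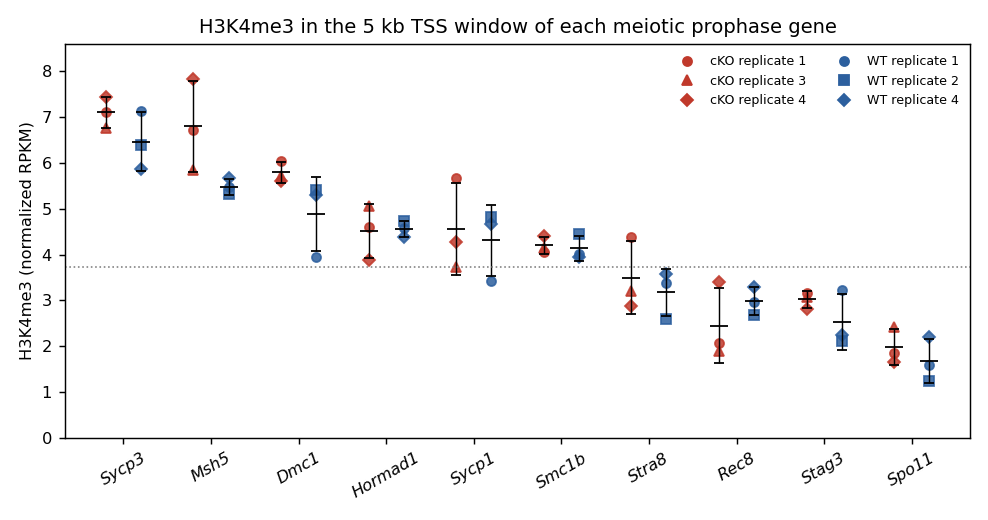
H3K4me3 (normalized RPKM, linear axis) in the 5 kb TSS window of each gene, ordered by the WT mean, with 1 point per library, black bars for mean ± SD (n = 3 per genotype) and a dotted line at the WT median of protein-coding TSS windows, 3.72. *Sycp3* stands highest and *Spo11* lowest in WT, and the genotypes separate only at *Msh5* and *Dmc1*.

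*Stra8*, the retinoic acid-induced factor that germ cells need to enter meiosis, had a TSS window (chromosome 6, 34920001 to 34925000, GRCm38) of intermediate level. The values were 4.39, 3.21 and 2.87 in cKO replicates 1, 3 and 4 and 3.37, 2.59 and 3.57 in WT replicates 1, 2 and 4. The genotypes overlapped, and the difference of 0.312 ± 0.467 (SE) did not pass the test (limma adjusted p = 0.750). Further into the gene the spread was wider. In the last *Stra8* window (34935001 to 34940000, with 3 of the 10 exon blocks of the gene) the cKO libraries had 3.50, 5.59 and 5.76 and the WT libraries 3.22, 2.59 and 3.09. All cKO values lay above all WT values there, but only replicates 3 and 4 by a wide margin, and the difference of 1.98 ± 0.566 did not pass (limma adjusted p = 0.128).

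Among the proteins of the chromosome axis, *Sycp3* encodes a filament-forming component. Its TSS window (chromosome 10, 88455001 to 88460000) had the highest level of the 10 genes, with 7.11, 6.77 and 7.45 in cKO and 7.14, 6.39 and 5.87 in WT. WT replicate 1 reached the cKO range, and the difference of 0.643 ± 0.409 did not pass (limma adjusted p = 0.491). The 3 further windows over *Sycp3* were lower, at 2.57, 0.967 and 0.812 as WT means. Because *Chpt1* runs through all of these windows on the other strand, and ChIP reads carry no strand of origin, the signal cannot be split between the 2 genes. The annotated start in the window is that of *Sycp3*.

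*Hormad1*, a HORMA-domain protein of unsynapsed axes, had 4.61, 5.06 and 3.88 in cKO and 4.58, 4.73 and 4.38 in WT at its TSS window (chromosome 3, 95555001 to 95560000). These values overlapped fully, with a difference of -0.0447 ± 0.387 (limma adjusted p = 0.963). The start lies only 323 bases from the edge of that window, and the next window, the first assigned to *Hormad1* (95560001 to 95565000), carried as much H3K4me3. It had 4.11, 2.95 and 3.64 in cKO and 4.26, 4.93 and 4.71 in WT, so that all cKO libraries were below all WT libraries, by 1.07 on average with an SE of 0.3997 (limma adjusted p = 0.240). In the window from 95580001 to 95585000, still within *Hormad1*, the order was the opposite, with 3.45, 3.21 and 3.01 in cKO and 2.22, 1.72 and 2.61 in WT (limma adjusted p = 0.207). *Hormad1* thus held windows of either order, neither of which passed.

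Meiotic cohesin is represented by *Rec8*, the kleisin subunit, *Stag3*, the meiosis-specific stromal antigen, and *Smc1b*, a meiotic SMC subunit. The TSS window of *Rec8* (chromosome 14, 55615001 to 55620000) had 2.06, 1.89 and 3.40 in cKO and 2.96, 2.69 and 3.30 in WT. A single cKO library, replicate 4, lay as high as the WT libraries, and the difference of -0.531 ± 0.449 did not pass (limma adjusted p = 0.546). *Stag3* had 3.17, 3.08 and 2.82 in cKO and 3.22, 2.10 and 2.25 in WT in its TSS window (chromosome 5, 138280001 to 138285000). WT replicate 1 stood above all cKO libraries, and the difference was 0.499 ± 0.390 (limma adjusted p = 0.513). This window also holds the start of *Gpc2*, 235 bases away on the opposite strand.

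At *Smc1b* (chromosome 15, 85130001 to 85135000) the libraries were closest together, with 4.06, 4.13 and 4.41 in cKO and 4.00, 4.44 and 3.96 in WT. The difference of 0.0682 ± 0.337 was small beside the spread (limma adjusted p = 0.933). *Ribc2* starts 114 bases away on the opposite strand, so the window again serves a pair of divergent starts. Downstream of the start, *Smc1b* had a WT mean of 0.912 in the next window.

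*Sycp1*, the transverse filament of the synaptonemal complex, spans the longest stretch of the 10 genes. Its TSS window (chromosome 3, 102935001 to 102940000) had 5.67, 3.74 and 4.27 in cKO and 3.43, 4.83 and 4.68 in WT. cKO replicate 1 was the highest and WT replicate 1 the lowest library, and without either of them the sign of the difference turned, from 0.246 ± 0.554 with all libraries (limma adjusted p = 0.841) to -0.308 without cKO replicate 1 and -0.196 without WT replicate 1.

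*Spo11*, the topoisomerase-like enzyme that makes meiotic double-strand breaks, had the lowest TSS window of the group (chromosome 2, 172975001 to 172980000). It had 1.84, 2.42 and 1.66 in cKO and 1.60, 1.23 and 2.19 in WT, little above the level of an ordinary window and with overlap between the genotypes (difference 0.302 ± 0.388, limma adjusted p = 0.704). All 4 *Spo11* windows were low, with WT means of 1.67 to 1.87. By contrast, the window just past the end of the gene (172995001 to 173000000), which has no gene assigned and none annotated in it, had 5.72, 6.51 and 6.58 in cKO and 5.83, 6.48 and 6.50 in WT, high and alike in all 6 libraries.

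*Dmc1* encodes the meiotic recombinase that carries out strand exchange with the homologue. In its TSS window (chromosome 15, 79605001 to 79610000) the cKO libraries had 6.05, 5.72 and 5.62 and the WT libraries 3.95, 5.41 and 5.31. Every cKO value was above every WT value, although WT replicates 2 and 4 were close to the cKO libraries and WT replicate 1 was far below them. The difference of 0.907 ± 0.440 did not pass (limma adjusted p = 0.376). The start lies 108 bases from the edge of the window, and the first window downstream (79600001 to 79605000) had 4.33, 4.27 and 4.07 in cKO and 4.21, 5.12 and 4.86 in WT, which overlapped. On the upstream side, the window from 79610001 to 79615000 lies outside the rule, within the neighbouring gene *Fam227a* (named *4933432B09Rik* in the table). It rose from 2.59, 2.202 and 2.40 in WT to 5.06, 3.74 and 4.75 in cKO, a gain of 2.12 ± 0.408 (limma adjusted p = 0.0459). This call was lost without cKO replicate 4 (limma adjusted p = 0.144) and without WT replicate 1, 2 or 4 (0.138, 0.156 and 0.162), and held without cKO replicate 1 or 3. It was also lost with log2(value + 1) (0.170), quantile normalization (0.128) and edgeR on whole reads (0.279), while in RPM the cKO libraries (6.03, 3.02 and 3.89) stayed above the WT libraries (2.60, 2.12 and 2.14). In each setting that lost it, edgeR apart, 0 or 1 window of the whole genome was called, so these losses were not particular to this window. With edgeR 11514 windows were called.

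*Msh5*, a MutS homologue that stabilises recombination intermediates destined to become crossovers, was the only gene of the 10 with a called window. Its 4 windows cover chromosome 17, 35030001 to 35050000, and it is transcribed on the minus strand, so the start lies in the last of them. The TSS window (35045001 to 35050000) had 6.72, 5.85 and 7.84 in cKO and 5.47, 5.31 and 5.67 in WT. Every cKO library was above every WT library, and the difference was 1.32 ± 0.483 (limma adjusted p = 0.229). This window also holds the starts of *Clic1*, 3221 bases away on the other strand, and of the snRNA gene *Gm23421*, so it is not specific to *Msh5*.

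The called window (35030001 to 35035000) lies in the 3′ part of *Msh5*, holds 10 of its 24 exon blocks and overlaps no other annotated gene. Starts of other annotated *Msh5* transcripts lie in it, in its neighbour on the 3′ side and in the window from 35040001 to 35045000. The called window is therefore away from the start of the gene record, but not from every annotated start. It had 7.22, 7.30 and 6.68 in the cKO libraries and 4.68, 5.02 and 4.47 in the WT libraries. The 2 groups were far apart relative to the spread within each, and the window rose by 2.34 ± 0.354 (limma adjusted p = 0.0253). The call held without cKO replicate 1 (limma adjusted p = 0.0268) but not without cKO replicate 3 (0.0531) or 4 (0.0755), or without WT replicate 1 (0.106), 2 (0.0990) or 4 (0.113), nor with log2(value + 1) (0.264) or quantile normalization (0.0912), while with a library left out the difference stayed between 2.21 and 2.54. Where the call was lost, 1761 windows of the genome were called without cKO replicate 3. In the other settings just named it was 0 or 1, so the loss there was not particular to this window. As reads scaled to the library total (RPM, without enrichment normalization), the window had 9.09, 5.29 and 5.27 RPM in cKO and 5.66, 4.79 and 4.24 in WT, so the genotypes overlapped on this scale. The edgeR quasi-likelihood test on the reads gave a log2 fold change of 0.40 with an adjusted p of 0.801.

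The other 2 windows of *Msh5* pointed the same way without passing. The window from 35035001 to 35040000 had 5.55, 5.45 and 7.40 in cKO and 4.42, 4.15 and 5.43 in WT, where cKO replicates 1 and 3 were just above the highest WT value and replicate 4 was well above it (limma adjusted p = 0.249). The window from 35040001 to 35045000 had 3.61, 4.66 and 2.43 in cKO and 1.86, 2.49 and 2.43 in WT, with cKO replicate 4 inside the WT range (limma adjusted p = 0.276). Next to the called window on the 3′ side, the window from 35025001 to 35030000, which is assigned to another gene and overlaps the 3′ end of *Msh5* together with *Sapcd1* and *Vwa7*, rose by 3.05 ± 0.373, from 4.63, 3.76 and 4.17 in WT to 6.94, 7.17 and 7.59 in cKO (limma adjusted p = 0.0150). That call was lost without cKO replicate 4 (0.0735) and without WT replicate 1 (0.0594), 2 (0.0901) or 4 (0.0702), and with log2(value + 1) (0.168), quantile normalization (0.0685) and edgeR on whole reads (0.700). Apart from edgeR, these were again settings with 0 or 1 call over the genome. In RPM this window had 8.70, 5.21 and 5.92 in cKO and 5.58, 3.59 and 3.94 in WT, which overlapped. In the next window, over *Vwa7*, H3K4me3 was high in both genotypes, at 7.44, 7.70 and 8.08 in cKO and 6.98, 6.29 and 7.43 in WT.

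**Figure D2:**
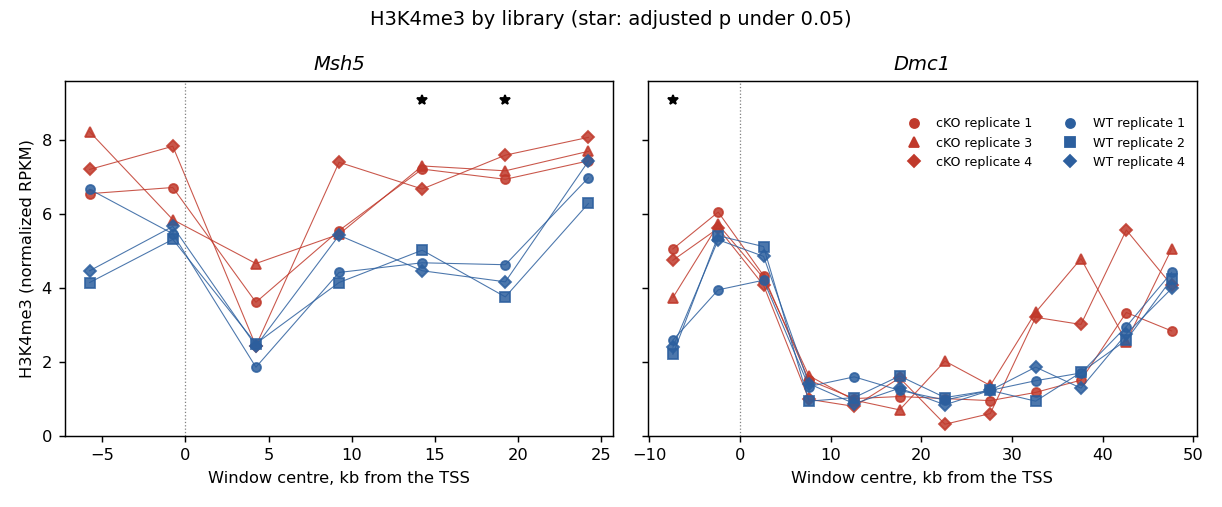
H3K4me3 (normalized RPKM, linear axis) by library in the 5 kb windows of the *Msh5* (left) and *Dmc1* (right) loci, against the distance of the window centre from the TSS in kb, with downstream positive. Stars mark windows called with limma, 2 at the 3′ end of *Msh5* and 1 upstream of *Dmc1*, and red cKO points lie above blue WT points in these.

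In order of WT level, the TSS windows ran *Sycp3*, *Msh5*, *Dmc1*, *Hormad1*, *Sycp1*, *Smc1b*, *Stra8*, *Rec8*, *Stag3* and *Spo11*. Of the 9 pairs of neighbours in this order, 7 overlapped between the WT libraries. The ranges were separate only between *Sycp3* and *Msh5* and between *Smc1b* and *Stra8*, so the order within the middle of the list is not resolved by 3 libraries. The 6 genes from *Sycp3* to *Smc1b* lay above the protein-coding median. The number of CpGs in the TSS window ran from 75 (*Hormad1*) to 126 (*Stra8*). Spearman's rho between CpG count and WT level was 0.164 over the 10 windows, against 0.556 over the protein-coding TSS windows, as descriptions of windows that share the same libraries. *Sycp3*, with the highest H3K4me3, had 90 CpGs, and *Stra8*, with the most, stood below the median of the 10.

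Taking the genotypes at the TSS windows as groups of libraries, every cKO library was above every WT library in 2 of the 10 (*Dmc1* and *Msh5*) and below in 0. Among protein-coding TSS windows the shares were 15.2% above and 8.99% below, so 2 of 10 was near the background. The replicate spread had a mean SD of 0.554 in cKO and 0.475 in WT. Counting error alone gave an SD of 0.619 to 1.01 in cKO replicate 3, where these windows had 22 to 59 reads, and 0.238 to 0.409 in WT replicate 4, where they had 63 to 186.

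Away from the start, H3K4me3 over these genes was mostly at the level of the genome. The 69 of the 76 windows without the TSS had a median of 1.43 in WT and 1.14 in cKO, where all windows of the genome had 1.46 and 1.54. They were CpG-poor, with a median of 26 CpGs against 35 in all windows. *Stag3* was the flattest, with WT means of 0.717 to 1.15 over its 6 windows, and *Smc1b* ran from 0.423 to 2.30 over 13 windows. The lowest *Smc1b* window (85080001 to 85085000) was also poorly covered in the input libraries, with 0.0985 to 0.311 RPM. Of the genes, 3 carried H3K4me3 well past the start in WT. *Msh5* had a median of 4.66 over its 3 windows without the TSS, *Hormad1* 3.04 over 6 and *Stra8* 2.97 over 3. Some of these *Msh5* windows hold starts of other *Msh5* transcripts. The highest window of *Sycp1* without the TSS (102900001 to 102905000, 33.6 kb into the gene) had 3.53, 4.24 and 3.30 in WT and 2.50, 1.23 and 4.85 in cKO, the most scattered window of the gene in cKO.

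**Figure D3:**
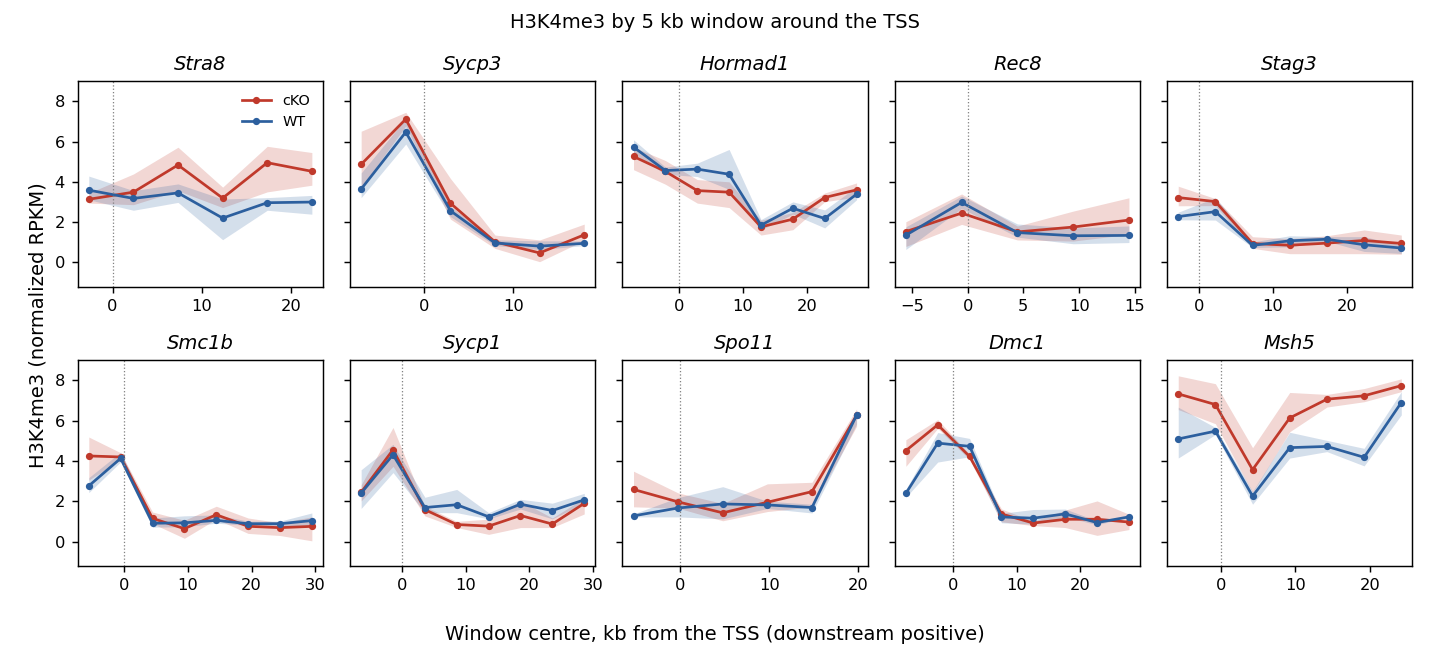
Mean H3K4me3 (normalized RPKM, linear axis) per genotype in the 5 kb windows from 8 kb before to 30 kb after the TSS of each gene, against the distance of the window centre from the TSS in kb, with shading from the lowest to the highest of 3 libraries. *Sycp3*, *Smc1b*, *Stag3* and *Sycp1* fall to the level of the genome within a few windows of the start, *Msh5* and *Stra8* do not, and the high window past *Spo11* is the same in both genotypes.

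Over the 76 windows, 1 was called with limma, the *Msh5* gain, and 0 were called as losses. That is 1.32% of the windows, against 0.563% of all windows called as gains and 0.454% as losses. At an unadjusted p under 0.05 there were 13 windows (17.1%), 8 higher and 5 lower in cKO, against 14.9% of all windows. Every cKO library was above every WT library in 6 of the 76 windows (7.89%) and below in 5 (6.58%), where the shares over all windows were 9.88% and 9.95%. The median difference of -0.117 was close to the -0.103 of all windows. The windows kept their rank between genotypes, with a Pearson's r of 0.902 and a Spearman's rho of 0.849 between WT and cKO means across the 76 windows, which are neighbours in 9 genes and share the libraries.

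**Figure D4:**
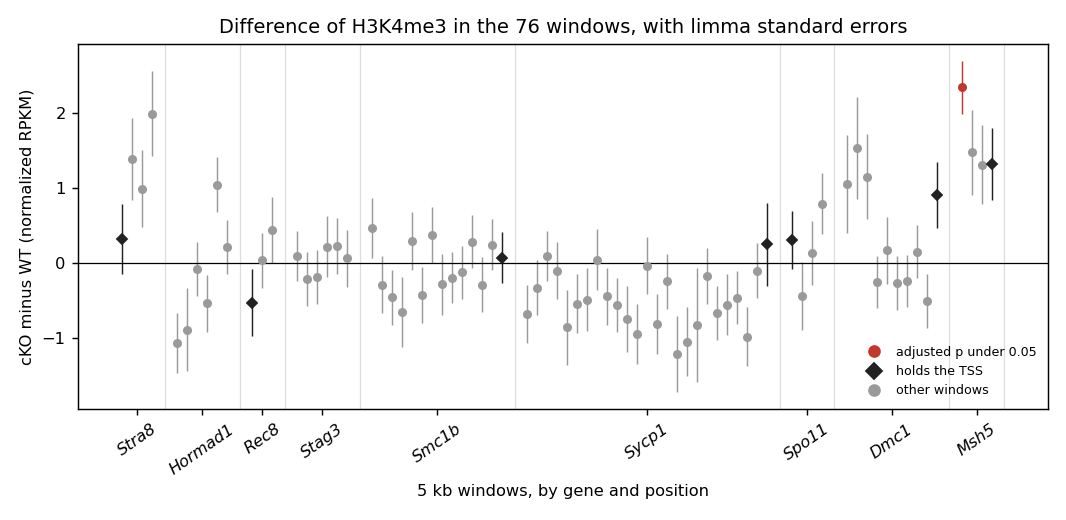
Difference of H3K4me3 (cKO minus WT, normalized RPKM, linear axis) with the limma SE in each of the 76 windows, grouped by gene and ordered by genome position, with diamonds for TSS windows and red for the called window. *Msh5* and *Stra8* lie above 0 throughout, most *Sycp1* windows lie below 0, and the called window is the first of *Msh5*.

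Averaged over all windows of a gene, 4 of the 9 genes had no overlap between genotypes, 3 with cKO above and 1 with cKO below. Among 14529 genes with at least 3 windows, averaged in the same way, 27.6% had every cKO library above every WT library and 7.63% had every one below, so 3 and 1 of 9 were near the background. The mean of *Msh5* was 5.78, 5.82 and 6.09 in cKO and 4.11, 4.24 and 4.50 in WT, a difference of 1.61. *Stra8* had 3.64, 4.56 and 4.15 in cKO and 3.20, 2.32 and 3.32 in WT, a difference of 1.17. *Dmc1* had 2.19, 2.73 and 2.57 in cKO and 2.07, 2.16 and 2.17 in WT, a difference of 0.368 in which cKO replicate 1 was hardly above WT. *Sycp1* went the other way, with 1.50, 0.970 and 0.990 in cKO and 1.71, 1.72 and 1.53 in WT, a difference of -0.500. In each of the 4 the exact two-sided permutation test gave p = 0.1, the smallest that 3 libraries against 3 allow, and 0.225 after Benjamini-Hochberg adjustment over the 9 genes.

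Of the 25 windows of *Sycp1*, 4 had every cKO library below every WT library and 0 above, and 0 passed the test (the lowest limma adjusted p was 0.280). Values below 0 occurred in 4 of the 25 windows in cKO replicate 3 and in 5 in cKO replicate 4, and in 0 in cKO replicate 1 and in each WT library, whose values at 0 reads are given above. In the windows below 0 in cKO replicate 3, the input libraries had 0.0389 to 0.965 RPM, against a median of 2.01 to 2.03 over all windows. The windows below 0 in cKO replicate 4 alone had 0.542 to 2.12 and 1.38 to 2.89 RPM. The part of low coverage in the *Sycp1* difference was not tested. In RPM per window, *Sycp1* had 1.02, 1.26 and 1.21 in cKO and 1.31, 1.67 and 1.26 in WT, which overlapped, as did all 9 genes on that scale. *Msh5* then had 7.05, 4.35 and 4.85 in cKO and 4.81, 4.05 and 4.27 in WT, with a lead carried mainly by cKO replicate 1, and *Stra8* had 4.03, 3.55 and 3.46 in cKO and 3.50, 2.23 and 3.07 in WT. The means of *Hormad1*, *Rec8*, *Stag3*, *Smc1b* and *Spo11* overlapped on both scales, with differences of -0.221, -0.0217, 0.0301, -0.0738 and 0.196 normalized RPKM.

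Over the 10 TSS windows and 4 input libraries (2 per genotype), the input ranged from 1.08 to 2.62 RPM, where the median of all windows was 2.01 to 2.03. In the called *Msh5* window it was 2.27 and 1.67 in cKO and 1.82 and 1.81 in WT, so the genotypes overlapped.

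The TSS windows of 42 other meiotic genes, from meiotic entry to crossover formation and telomere attachment, were compared in the same fit. Their median in WT was 4.24, beside 4.22 for the 10 genes. None was called as a gain and 1 as a loss, *Smc3*, and 13 had an unadjusted p under 0.05. The median difference was 0.0965, with 23 genes above 0 and 19 below. Every cKO library was above every WT library in 6 (14.3%) and below in 4 (9.52%), again near the shares of protein-coding TSS windows given above.

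*Smc3*, a cohesin subunit that mitotic and meiotic cells share, had 3.39, 3.08 and 2.92 in cKO and 7.51, 6.29 and 6.11 in WT in its TSS window (chromosome 19, 53600001 to 53605000). The genotypes were far apart, and the window fell by 3.51 (SE 0.427, limma adjusted p = 0.0150). In RPM all cKO libraries were below all WT libraries as well, with 3.68, 2.60 and 2.58 against 9.78, 5.99 and 5.92. The call held without cKO replicate 1 (0.0179) or 3 (0.0391) and missed the threshold without cKO replicate 4 (0.0766) and without WT replicate 1 (0.0624), 2 (0.0872) or 4 (0.0582), with differences of -3.07 to -3.77. The call also missed with log2(value + 1) (0.113), quantile normalization (0.0867) and edgeR on whole reads (0.164). With edgeR 11514 windows of the whole genome were called, and in the other settings where it missed 0 or 1. The meiosis-specific cohesin subunits described above did not pass.

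Below *Smc3*, the largest negative differences were -1.67 for *Hormad2*, -1.30 for *Syce2*, a central-element protein, and -1.30 and -1.19 for *Spata22* and *Meiob*, partners that bind single-stranded DNA at breaks, and none of these passed. *Hormad2*, the paralogue of *Hormad1*, had 6.55, 3.47 and 6.10 in cKO and 7.14, 7.36 and 6.62 in WT, with cKO replicate 3 far below the rest. On the positive side, *Six6os1* (1.94) and *Syce3* (1.47), both central-element components of the synaptonemal complex, led the crossover factors *Mlh3* (1.26) and *Ccnb1ip1* (1.17) and the ATPase *Trip13* (1.10), and none passed either. *Six6os1* had 5.72, 6.11 and 3.93 in cKO and 2.54, 3.56 and 3.84 in WT (limma adjusted p = 0.145). The TSS window of *Ccnb1ip1* also holds the starts of *Rpph1* and *Parp2*, and that of *Trip13* the start of *Brd9*. That of *Spata22* also holds the starts of *Aspa* and *Gm49340*, so these windows are not specific to the meiotic gene. Of the 6 genes with every cKO library above, 4 were among the 7 double-strand break genes (*Iho1*, *Top6bl*, *Mei4* and *Ankrd31*), 1 among the crossover genes and 1 in the centre of the synaptonemal complex. Of the 4 with every cKO library below, 3 were among the 5 axis and cohesin genes (*Smc3*, *Hormad2* and *Sycp2*) and 1 among the strand exchange genes, and the meiotic entry and telomere attachment genes had 0 of either kind. These short lists were read after the values were known, beside shares of 15.2% and 8.99% of protein-coding TSS windows.

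**Figure D5:**
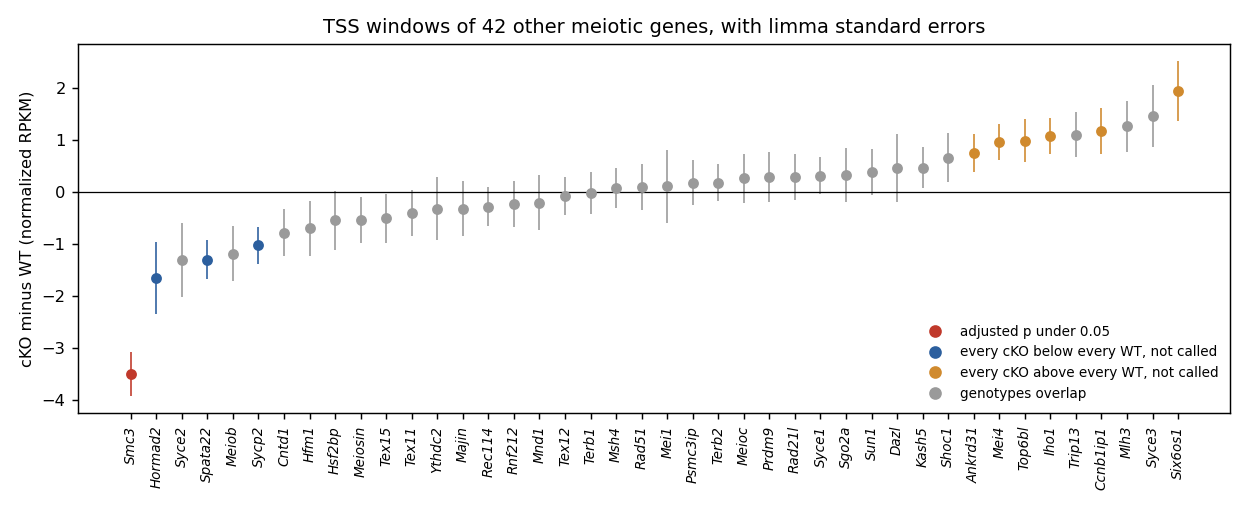
Difference of H3K4me3 (cKO minus WT, normalized RPKM, linear axis) with the limma SE in the TSS windows of 42 other meiotic genes, ordered by size. *Smc3*, in red, is the only called window at -3.51, orange and blue mark the 6 and 3 further genes whose genotypes do not overlap, and the rest are grey.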

How the data were processed

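ULI-nChIP-seq libraries for H3K4me3 were from 3 cKO and 3 WT pools of GV oocytes, with 2 input libraries per genotype, and groups came from the labels. Reads were trimmed with Trim Galore 0.4.2 and mapped to GRCm38 with Bowtie2 2.2.9, per the submitters' processing notes, and the authors quantified 5 kb windows in SeqMonk. Each H3K4me3 value that the authors deposited is a score, namely RPKM after the enrichment normalization of that program. The authors gave input as a signal, the reads in a window scaled to the library size (RPM). Windows with an input above a limit, and libraries of poor enrichment, were excluded by the authors.

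The 544879 windows were tested with limma 3.58.1 (R 4.3.3) on the deposited values, without an intensity trend or a block, two-sided and with Benjamini-Hochberg adjustment over all windows. A window with an adjusted p under 0.05 was called. The test was checked on simulated data. Whole reads were recovered from the steps between values (100% of values). The tolerance was 0.01 reads at the lowest counts and widened with the log of the read count. Alternatives included edgeR 4.0.16 on these reads. Gene means in RPM were added after seeing the data. Intervals of counting error assume independent reads, and duplicates cannot be told apart. TSSs were the 5′ ends of genes in GENCODE M21, and exon blocks merge its transcripts. Windows counted as without the TSS can therefore hold starts of other transcripts of the gene. Gene means were compared with exact permutation tests in scipy 1.17.1, and figures were drawn with matplotlib 3.10.9.

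Named are the 10 genes, called windows, the highest windows of a gene, and, of the other meiotic genes, those called and the 5 largest differences in each direction. Windows of *Stra8*, *Hormad1* and *Sycp1* beyond these, windows outside the rule and genes listed by role were chosen after their values were seen. The members and lists were chosen with earlier results of these data known. No promoter sequence was used for *Spo11*. Expression data were not used here.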

Additional observations from a re-analysis of the deposited data

How the results depend on the processing

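In the 76 windows, 1 was called with limma on the deposited values, 1 with an intensity trend and 1 of 53 with a mean of at least 1. With log2(value + 1), quantile normalization and edgeR on whole reads 0 were called, with 11, 8 and 4 at an unadjusted p under 0.05, and leaving out a library gave 0 to 6 (6 without cKO replicate 1, in *Dmc1*, *Msh5*, *Stra8* and *Sycp1*). Over the genome, 5539 windows were called on the deposited values, 19492 with the trend and 7503 with the mean of at least 1. With log2(value + 1) there were 0, with quantile normalization 1 and with edgeR 11514. Without cKO replicate 1 there were 17979, without cKO replicate 3 1761, and without any other library 0 or 1. Among the other meiotic genes, 1 TSS window (*Smc3*) was called on the deposited values and 0 with log2(value + 1), quantile normalization and edgeR (5, 8 and 4 at an unadjusted p under 0.05), and leaving out a library gave 0 to 3. Calls at the 10 TSS windows stayed at 0 except with the replicate block. The median difference there was 0.255 to 0.466 with a library left out, and 0.11 with log2(value + 1) and 0.0675 with edgeR, both in log2 units. The cause of these changes was not tested.

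With the replicate number as a block, 5 of the 76 windows were called, all gains in *Dmc1*, *Msh5* and *Stra8*, 1 TSS window of the 10 (*Msh5*, 1.71, limma adjusted p = 0.0101) and 3 of the other meiotic genes (*Smc3*, *Six6os1* and *Mlh3*). Over the genome, 33433 of 544879 windows were called with this block, so 5 of 76 was near the background. The genotypes share only numbers 1 and 4, and the labels name no shared litter or batch. Deviations from the group means correlated at 0.319 for replicate 1 and 0.019 for replicate 4. Crossed numbers gave -0.036 (cKO 1 with WT 4) and -0.136 (cKO 4 with WT 1). Whether the libraries of replicate 1 have more in common than a number was not tested.

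The sign of a difference that was not called turned at *Spo11* with the block (-0.141), at *Sycp3* (-0.12, log2) and *Smc1b* (-0.17, log2) with edgeR, and with a library left out at *Sycp1* (range -0.308 to 0.656), *Hormad1* (-0.315 to 0.273), *Smc1b* (-0.0372 to 0.222) and *Stra8* (-0.138 to 0.622). The mean over the *Smc1b* windows turned to 0.0598 with quantile normalization and to 0.159 in RPM. With a library left out, the mean over the *Rec8* windows ran from -0.212 to 0.226. That over the *Stag3* windows ran from -0.0372 to 0.121, so the sign turned in both. The median difference of all windows moved from -0.103 to 0.09 with edgeR (log2).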
